A study of Mus musculus with 6 samples.

Results

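The protein folding machinery of the endoplasmic reticulum (ER) and the transcription factors of the unfolded protein response were examined in mouse B cell progenitors through 10 genes. They are the chaperones Hspa5, Hsp90b1 and Calr, the disulfide isomerases Pdia3, Pdia4 and Pdia6, the transcription factors Xbp1, Atf4 and Ddit3, and the B lineage cofactor Mzb1. The genes were chosen by name, and every probe set that the platform annotation pairs with one of them alone was taken. All 10 genes were found, through 11 of the 28940 probe sets in the table, since Pdia4 has 2 probe sets and each other gene has 1. RNA came from a combined sort of pro-B and pre-B cells of old BALB/c mice at 24 months of age (3 arrays) and of young BALB/c mice at 2 months (3 arrays). BALB/c is an inbred laboratory strain, and no genotype or treatment other than age separates the groups in the labels. The cells were not manipulated, and 100 ng of RNA was amplified for each whole-transcript array. The labels speak of separate mice without saying whether RNA was pooled, so p-values measure only the spread between these arrays.

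Proteins that are secreted or inserted in membranes fold in the ER, where chaperones hold unfolded chains and disulfide isomerases form and reshuffle cysteine bridges. When unfolded protein accumulates, the sensors IRE1, PERK and ATF6 start the unfolded protein response. IRE1 splices the Xbp1 transcript, PERK favours translation of ATF4, and the resulting factors, with ATF6, switch on chaperone genes and, through the Ddit3 product CHOP, genes of cell death. In the B lineage this machinery is known above all from plasma cells, which secrete antibody, while pre-B cells already assemble heavy chains with the surrogate light chain in the ER.

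Levels are given as log2 of the deposited intensity, differences are old minus young, and levels of different genes are not ranked because each probe set has its own response. As a level of background, the 95th percentile over the 1210 probe sets paired with 1 smell or pheromone receptor gene (Olfr and Vmn symbols) was taken on each array (the receptor level). It lay at 6.29, 6.21 and 5.02 on old replicates 1, 2 and 3, and at 4.75, 4.74 and 4.57 on young replicates 1, 2 and 3. Of the 23410 probe sets with a gene, 14.8%, 17.1% and 49.2% stood above it on old replicates 1, 2 and 3, against 52.9%, 53.2% and 56.3% on the young arrays. Old replicates 1 and 2 thus stand apart from the other 4 arrays, and the results for the members are given with and without them. The arrays were also checked for their labelled cell type. Of 12 measured pro-B and pre-B cell markers, 5 and 7 stood above the receptor level on old replicates 1 and 2, and all 12 on old replicate 3 and on each young array. In these bulk samples fewer cells of a type and less RNA per cell cannot be told apart.

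The stretch before a gene's start is shown for the chaperone and isomerase genes because it carries the ER stress response element, the site at which ATF6 and XBP1 are known to act together with NF-Y. Windows of 300 bases, from 250 before to 50 after the annotated start, were taken from RefSeq (build GRCm38.p6), which matched 9 of the 10 members, all but Mzb1. The windows printed are Hspa5 at chr2:34771840-34772139 (plus strand), Hsp90b1 at chr10:86705395-86705694 (minus strand), Calr at chr8:84846882-84847181 (minus strand), Pdia3 at chr2:121413652-121413951 (plus strand), Pdia4 at chr6:47813463-47813762 (minus strand) and Pdia6 at chr12:17266339-17266638 (plus strand), with Ddit3 at chr10:127290543-127290842 (plus strand) as the gene whose levels differed least between the groups. All are written 5′ to 3′ on the strand of the gene, and capitals mark the element on either strand, in the full form, CCAAT and CCACG with any 9 bases between them, or in the shorter form that lies within it and ends in CCA.
Hspa5 promoter: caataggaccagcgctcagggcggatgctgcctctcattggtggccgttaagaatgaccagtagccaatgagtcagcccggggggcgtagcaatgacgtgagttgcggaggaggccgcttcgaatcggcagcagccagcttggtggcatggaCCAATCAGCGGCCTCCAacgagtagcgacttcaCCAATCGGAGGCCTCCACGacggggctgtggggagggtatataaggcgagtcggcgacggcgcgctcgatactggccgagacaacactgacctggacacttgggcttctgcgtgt
Hsp90b1 promoter: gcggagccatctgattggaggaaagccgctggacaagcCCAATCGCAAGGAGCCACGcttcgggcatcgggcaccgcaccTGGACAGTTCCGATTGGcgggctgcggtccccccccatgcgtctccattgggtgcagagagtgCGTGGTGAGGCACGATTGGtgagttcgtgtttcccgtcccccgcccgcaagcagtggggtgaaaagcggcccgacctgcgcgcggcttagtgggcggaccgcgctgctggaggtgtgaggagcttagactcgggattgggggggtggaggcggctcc
Calr promoter: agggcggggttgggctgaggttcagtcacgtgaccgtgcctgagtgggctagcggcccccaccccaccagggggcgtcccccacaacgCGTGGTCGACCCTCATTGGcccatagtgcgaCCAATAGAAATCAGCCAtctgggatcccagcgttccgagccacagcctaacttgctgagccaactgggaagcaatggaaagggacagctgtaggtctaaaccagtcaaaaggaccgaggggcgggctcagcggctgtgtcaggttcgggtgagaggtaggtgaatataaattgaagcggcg
Pdia3 promoter: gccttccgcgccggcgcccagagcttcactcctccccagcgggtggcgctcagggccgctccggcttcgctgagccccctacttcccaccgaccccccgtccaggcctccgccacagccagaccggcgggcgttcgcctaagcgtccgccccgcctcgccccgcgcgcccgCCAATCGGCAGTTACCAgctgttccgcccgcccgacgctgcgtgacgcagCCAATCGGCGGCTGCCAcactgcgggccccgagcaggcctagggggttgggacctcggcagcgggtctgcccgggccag
Pdia4 promoter: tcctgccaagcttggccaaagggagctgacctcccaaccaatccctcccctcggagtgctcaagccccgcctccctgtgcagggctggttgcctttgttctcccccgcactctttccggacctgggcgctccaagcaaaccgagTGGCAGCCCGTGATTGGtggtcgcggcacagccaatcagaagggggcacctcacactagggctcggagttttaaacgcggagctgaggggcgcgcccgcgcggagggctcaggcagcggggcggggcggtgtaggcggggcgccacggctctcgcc
Pdia6 promoter: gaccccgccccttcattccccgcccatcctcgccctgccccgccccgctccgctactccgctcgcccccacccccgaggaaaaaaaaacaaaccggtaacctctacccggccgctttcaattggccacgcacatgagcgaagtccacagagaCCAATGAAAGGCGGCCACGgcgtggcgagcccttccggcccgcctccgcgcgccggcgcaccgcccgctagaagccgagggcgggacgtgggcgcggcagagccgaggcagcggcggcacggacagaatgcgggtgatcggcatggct
Ddit3 promoter: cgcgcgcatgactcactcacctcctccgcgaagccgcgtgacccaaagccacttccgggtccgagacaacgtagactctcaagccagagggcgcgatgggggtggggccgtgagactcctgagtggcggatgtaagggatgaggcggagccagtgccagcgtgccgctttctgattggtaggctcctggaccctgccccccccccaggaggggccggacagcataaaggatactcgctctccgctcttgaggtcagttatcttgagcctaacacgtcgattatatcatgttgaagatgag

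The full element was found in the windows of Hspa5, Hsp90b1, Calr and Pdia6, that is in 4 of 9 members, against 0.119% of all 32851 RefSeq promoter windows. Hsp90b1 held it at 2 places. In Hspa5, read on the gene strand, it is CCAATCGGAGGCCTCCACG from base -65 to -47 before the start, and in Pdia6 it is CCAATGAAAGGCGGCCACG from base -98 to -80. The shorter form was found in all 6 chaperone and isomerase genes, Pdia3 and Pdia4 included, against 1.09% of all windows, and in none of the windows of Xbp1, Atf4 and Ddit3. Other letters searched on both strands were ATTGG and CCACG with 1 base between them, the second form of the stress element (0.0365% of all windows), TGACGTGG, an XBP1 and ATF6 site (0.676%), and TTGCATCA, an ATF4 and C/EBP site (0.895%). None of these was found in the 9 member windows. The element is already known from ER chaperone genes, so its share among the members is a description and no test of enrichment. A match describes letters only, and a window without one says nothing about the factor.

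**Figure D1:**
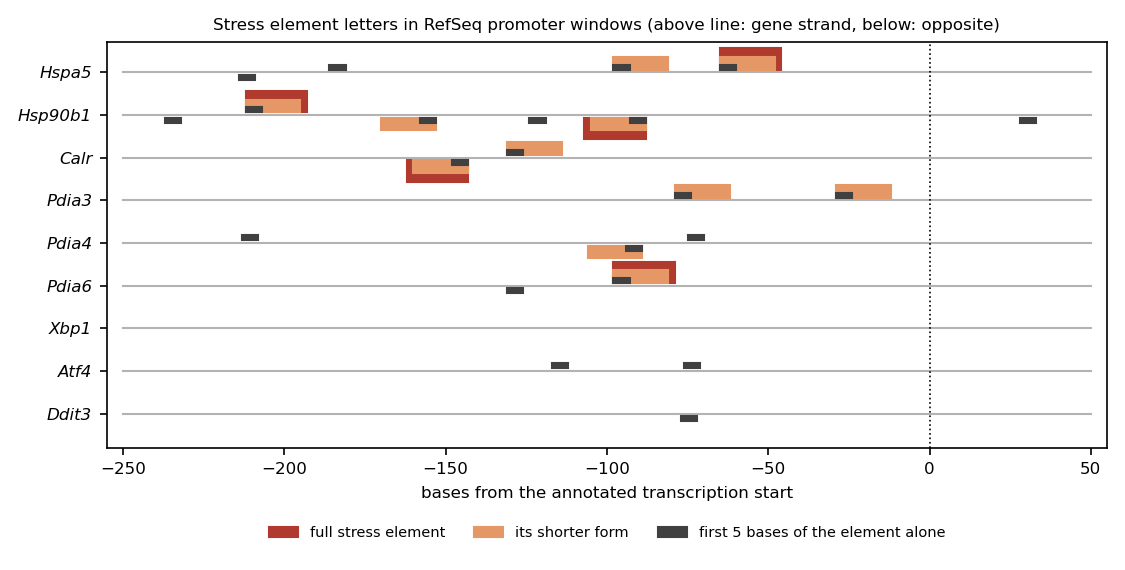
Position of stress element letters in the RefSeq promoter windows of 9 members, in bases from the annotated transcription start (dotted line), with marks above a line on the gene strand and below it on the opposite strand. Dark red bars are the full element, orange bars its shorter form and grey bars its first 5 bases alone. The full element lies in Hspa5, Hsp90b1, Calr and Pdia6, and the shorter form in all 6 chaperone and isomerase genes.

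The 3 chaperones were near or below the receptor level on old replicates 1 and 2, and on old replicate 3 they stood close to the young arrays. Hspa5, which encodes the ER Hsp70 chaperone BiP that also holds the stress sensors inactive, had log2 levels of 5.91, 5.93 and 8.79 on old replicates 1, 2 and 3, against 8.90, 9.01 and 9.16 on young replicates 1, 2 and 3 (probe set 10471586). All 3 old arrays lay below all 3 young arrays, 2 of them far below and the third just below. The old mean was 6.88 ± 1.66 and the young mean 9.02 ± 0.13 (SD, n = 3 each), a difference of -2.14 ± 0.76 (SE) that did not pass the threshold (adjusted p = 0.101). Because the old values of replicates 1 and 2 were not above the receptor level, they give only bounds, of at least 6.67-fold and 7.05-fold below the young mean. Hsp90b1, the ER member of the Hsp90 family, which folds integrins and Toll-like receptors, had levels of 5.09, 6.29 and 11.23 on the old arrays, against 11.12, 11.17 and 11.15 on the young arrays (probe set 10371482). Old replicate 3 was above every young array, so the groups overlap, while replicate 1 was below the receptor level and replicate 2 just above it. The difference of -3.61 ± 1.45 (SE) carried the widest old spread of the members, 3.26 (SD, n = 3), and an adjusted p of 0.103. Against the young mean Hsp90b1 was at least 29.1-fold lower on old replicate 1, and by its measured value 4.86 lower on the log2 scale on replicate 2. Calr, which encodes the lectin-type chaperone and calcium store calreticulin, had levels of 5.61, 5.88 and 8.27 on the old arrays, against 8.01, 8.05 and 8.35 on the young arrays (probe set 10580219). Old replicate 3 lay inside the young range, and the difference of -1.55 ± 0.68 (SE) did not pass (adjusted p = 0.113).

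The disulfide isomerases had the same split among the old arrays. Pdia3 (ERp57), the partner of calreticulin and calnexin that also takes part in loading MHC class I, had levels of 4.72, 5.73 and 8.60 on the old arrays, against 8.52, 8.57 and 9.03 on the young arrays (probe set 10475335). Old replicate 3 was within the young range and the other old arrays were below the receptor level. Pdia6 (P5), an isomerase that binds BiP, had levels of 5.36, 4.91 and 7.72 on the old arrays, against 8.06, 8.06 and 8.61 on the young arrays (probe set 10394735). For Pdia6 the groups did not overlap, and old replicate 3 was 0.53 below the young mean. Pdia4 (ERp72), an isomerase with an additional thioredoxin-like domain, had levels of 5.72, 5.39 and 7.28 on the old arrays, against 7.48, 7.65 and 7.92 on the young arrays for its brighter probe set (10544525), also without overlap. The second Pdia4 probe set (10544538), which the annotation ties to a single predicted transcript, had levels of 5.56, 5.22 and 4.28 on the old arrays, against 4.63, 4.83 and 4.42 on the young arrays. It was above the receptor level on 1 array, young replicate 2, so the probe sets of Pdia4 disagree in direction and the dimmer one carries hardly any signal. The differences of Pdia3, Pdia4 (brighter probe set) and Pdia6 were -2.36 ± 0.92, -1.55 ± 0.50 and -2.25 ± 0.71 (SE), each at an adjusted p of 0.101.

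**Figure D2:**
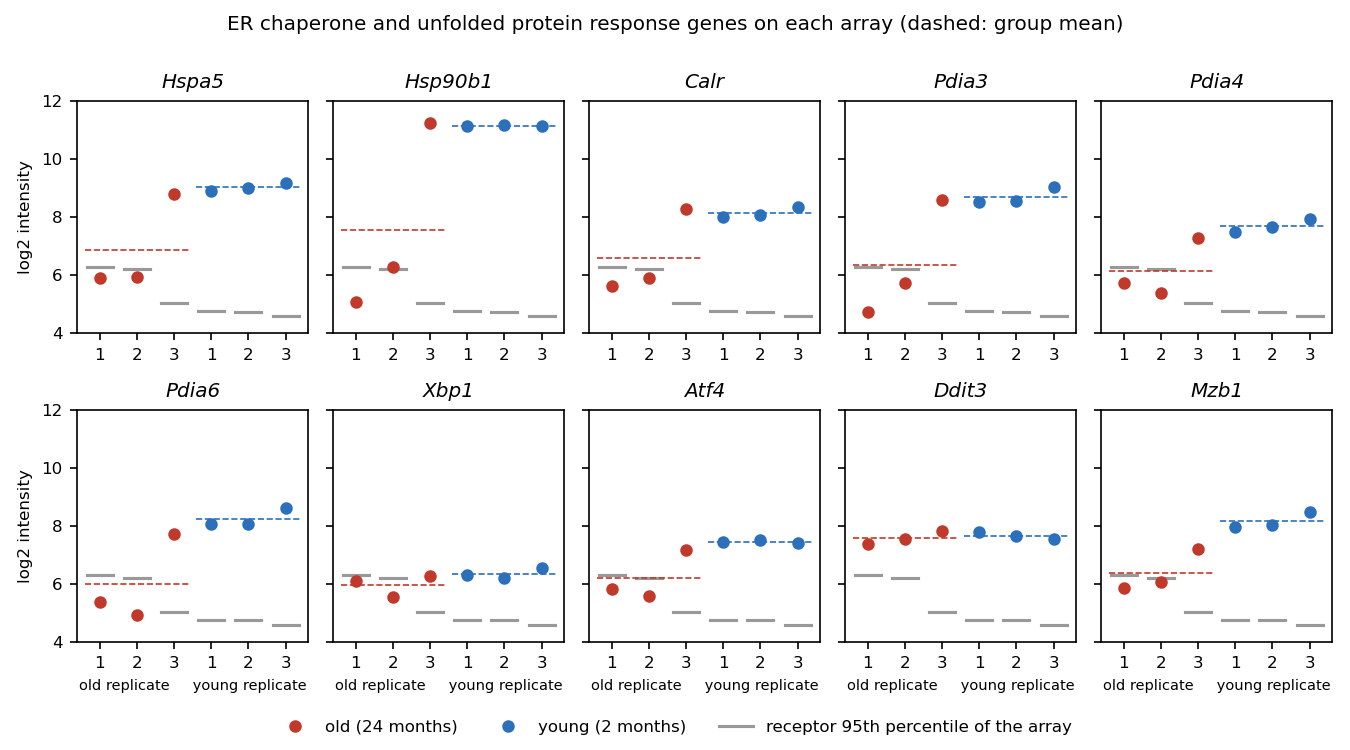
Log2 intensity of each of the 10 genes (brightest probe set) on the 3 old arrays (red) and the 3 young arrays (blue). Dashed lines are group means and grey bars the 95th percentile of the receptor probe sets on that array. On old replicates 1 and 2 the points of 8 genes are at or below the grey bars, Hsp90b1 is above it on replicate 2 only, and Ddit3 is above it on all 6 arrays.

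The 3 transcription factors did not behave alike. Ddit3 (CHOP), which promotes cell death under prolonged ER stress, was the one member above the receptor level on all 6 arrays, as were 11.3% of all probe sets tested. Its levels were 7.38, 7.53 and 7.82 on the old arrays, against 7.78, 7.64 and 7.53 on the young arrays (probe set 10366881). Old replicate 1 was below and old replicate 3 above every young array, so the groups overlapped, and the difference was -0.08 ± 0.22 (SE, adjusted p = 0.771). That small difference changed sign after quantile normalization, to 1.01 (adjusted p = 0.207), and without old replicate 1, to 0.024 (adjusted p = 0.933). Atf4, whose product induces amino acid supply and Ddit3, had levels of 5.81, 5.57 and 7.16 on the old arrays, against 7.42, 7.51 and 7.41 on the young arrays (probe set 10425364). The groups did not overlap, and the difference of -1.27 ± 0.42 (SE) stood at an adjusted p of 0.101. Xbp1, which drives ER expansion in plasma cells, had levels of 6.08, 5.53 and 6.27 on the old arrays, against 6.29, 6.18 and 6.53 on the young arrays (probe set 10374035). Old replicate 3 was inside the young range, and on old replicates 1 and 2 Xbp1 was below the receptor level, which itself lay 0.05 and 0.13 under the young mean, so any fall beyond these values lies within background. The difference was -0.37 ± 0.27 (SE, adjusted p = 0.252), against -0.16 without old replicate 2 and -0.08 after quantile normalization. The probe set measures the transcript as a whole, and the spliced form was not analysed here.

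Mzb1 was the member with the smallest p-value and the one that also stood clearly lower on old replicate 3. Its product (pERp1) is an ER protein of the B lineage that works with the Hsp90b1 product and helps to assemble immunoglobulin. Its levels were 5.85, 6.06 and 7.19 on the old arrays, against 7.95, 8.02 and 8.48 on the young arrays (probe set 10458278). The groups did not overlap, and the gap between old replicate 3 and the nearest young array was larger than the spread of the young arrays. The old mean was 6.36 ± 0.72 and the young mean 8.15 ± 0.29 (SD, n = 3 each), a difference of -1.78 ± 0.39 (SE) at an unadjusted p of 0.00281 and an adjusted p of 0.101. Against the young mean, Mzb1 on old replicates 1 and 2 was at least 3.63-fold and 3.84-fold lower.

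Over all 6 arrays 0 of the 11 member probe sets passed an adjusted p under 0.05, as did 0% of the 23410 probe sets tested. At an unadjusted p under 0.05 there were 7 of 11, all lower in the old group, where 46.8% of all probe sets reached it and 21.9% did so as lower. The groups did not overlap for 5 of the 11, each time with the old arrays lower, against 22.9% of all probe sets in that direction. The median difference of the 10 genes was -1.67, against 0.37 for the 19938 genes represented on the array, which makes it -2.04 relative to all genes. Brightness bears on these counts. Of the 9 member probe sets with a young mean above 7, 8 were more than 1 log2 below the young mean on both old replicates 1 and 2, and so were 81.1% of the 4817 such probe sets in the table. The share of members is therefore near that of all bright probe sets, and it is not a result about the members.

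Old replicates 1 and 2 and old replicate 3 gave different pictures when each was set against the young arrays. Without old replicate 3, 9 of 11 member probe sets passed as lower, where 30.2% of all probe sets did, and 1 as higher, the dimmer of Pdia4, where 52.2% did. In either direction that is 10 of 11, against 82.4% of all probe sets. Over all 6 arrays with array weights 10 of 11 passed, 9 of them as lower, against 85.4% of all in either direction. With the receptor level as a floor 8 of 11 passed, 7 of them as lower, against 67.6% in either direction. That floor is highest on old replicates 1 and 2, so probe sets under it on every array come out higher in the old group. The shares in either direction pool opposite directions and are not a like background, so these counts are not a result about the members. Without old replicate 3 the single member that did not pass was Ddit3 (-0.20 ± 0.14, SE, adjusted p = 0.234 with limma), and Xbp1 passed narrowly (-0.53 ± 0.21, SE, adjusted p = 0.0473). With old replicate 3 alone, which was assumed to vary like the young arrays, 1 of 11 passed, as lower, where 5.24% of all probe sets did, and none passed as higher, where 1.76% did (7% in either direction). That gene was Mzb1 (-0.96 ± 0.21, SE, adjusted p = 0.042). On this array Hspa5 (-0.23 ± 0.15, SE, adjusted p = 0.345), Pdia6 (-0.53 ± 0.23, SE, adjusted p = 0.182), Pdia4 (-0.40 ± 0.18, SE, adjusted p = 0.2) and Atf4 (-0.29 ± 0.13, SE, adjusted p = 0.192) were below every young array without passing. Hsp90b1 and Ddit3 were above every young array, by 0.08 and 0.17 over the young mean. In all, old replicate 3 was below the young range for 6 of 11 member probe sets, against 31.8% of all probe sets, and above it for 2, against 41.7%. These shares are not matched for brightness, and 9 of the 11 had a young mean above 7. Among bright probe sets (young mean above 7) 7 of 9 members were at or below the receptor level on both old replicates 1 and 2, against 55.1% of all. The median difference of the 10 genes was -0.17 on old replicate 3 and -2.29 on old replicates 1 and 2, against 0.04 and 0.53 for all genes. Of all 19938 genes only 3668 had a young mean above 7, so these medians are not matched for brightness either.

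**Figure D3:**
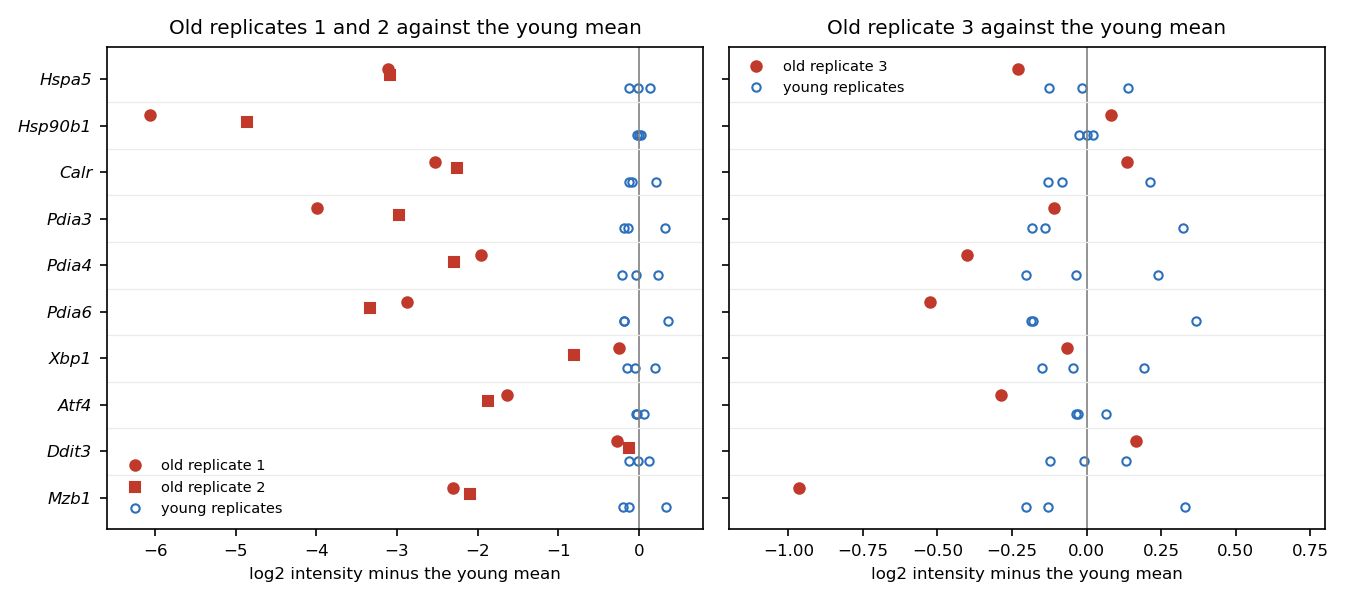
Log2 intensity minus the young mean for each of the 10 genes (brightest probe set), for old replicates 1 and 2 (left) and old replicate 3 (right, on a narrower axis), with the 3 young arrays as open blue circles. On old replicates 1 and 2 Ddit3 and Xbp1 lie nearest to 0 and Hsp90b1 farthest, and on old replicate 3 Mzb1 lies farthest, 0.96 below the young mean.

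Markers of cell stage and of other cells are given beside the Mzb1 values, and their part in the result was not tested. Dntt, the terminal transferase of pro-B cells, was at 4.56, 6.17 and 5.13 on the old arrays, against 6.69, 6.59 and 8.18 on the young arrays. Igll1, a surrogate light chain component of pro-B and early pre-B cells, was at 7.14, 8.93 and 7.86 on the old arrays, against 9.11, 8.77 and 9.54 on the young arrays, with old replicate 2 inside the young range. Like Mzb1, both were below the young range on old replicate 3 and highest on young replicate 3; they were picked after their values were seen. Of all 12 measured pro-B and pre-B markers, 6 were below the young range on old replicate 3 (31.8% of all probe sets were) and 4 were highest on young replicate 3, but both held for 3 of the 12 only. Other markers differed from Mzb1. Vpreb1, a surrogate light chain component, was at 11.13, 11.69 and 10.82 on the old arrays, against 11.15, 10.76 and 11.07 on the young arrays. Pax5, a factor of B cell identity, was above every young array on old replicate 3. Among the members, 7 of 11 probe sets were highest on young replicate 3 among the young arrays, against 36.5% of all probe sets, and so were 15 of 15 neutrophil markers and 8 of 9 macrophage markers. The summed intensity of the neutrophil markers was 2263, 5055 and 8848.5 on the old arrays, against 8748, 8441 and 11263 on the young arrays, and none of them was below the receptor level everywhere. For the macrophage markers the sum was 421, 328 and 567 on the old arrays, against 758, 689 and 1373 on the young arrays. A sum is weighted towards its brightest genes, and 5 of the 9 macrophage markers had a higher old mean (median difference 0.06). Adgre1, Cd14 and Fcgr1 were at or below the receptor level on all 6. Plasma cells, which rely on Xbp1, were followed by 7 measured markers. Their summed intensity was 226, 212 and 859 on the old arrays, against 911, 896 and 876 on the young arrays. Of these 7, 4 had a lower and 3 a higher old mean, with a median difference of -0.08. Prdm1 and Tnfrsf17, which define plasma cells, were at or below the receptor level on all 6 arrays. Of the erythroid markers, 6 of 7 were highest on young replicate 3. They summed to 461, 379 and 729 on the old arrays, against 828, 877 and 977 on the young arrays. The brightest on the young arrays was Tfrc, at 4.15, 4.50 and 8.83 on the old arrays, against 9.19, 9.16 and 9.25 on the young arrays. Of the 7, 5 had a higher old mean, and the median difference was 0.10, so the sums do not describe the list. T and NK cell markers summed to 268, 318 and 210 on the old arrays, against 207, 198 and 251 on the young arrays, and Cd4, Cd8a, Cd8b1, Zap70 and Klrb1c were at or below the receptor level on all 6. The summed pro-B and pre-B cell markers gave 3054, 4653 and 8024 on the old arrays, against 9689, 9180 and 9336 on the young arrays.

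Other genes of the same machinery were taken from 5 lists, of which 4 are described here. In the comparison of all arrays 0 of their genes passed (background 0%). The list of other ER folding factors had 35 measured genes, of which 29 had a lower old mean, where 7322 of all 19938 genes did. Its median difference was -1.36, or -1.73 relative to all genes. Brightness bears on these values, since 18 of the 35 had a young mean above 7, where 3668 of all 19938 genes did. Of all probe sets that bright, 81.1% were more than 1 log2 below the young mean on both old replicates 1 and 2. At an unadjusted p under 0.05 with limma stood 22 of the 35, where 46.8% of all probe sets did. Ero1a, the oxidase that recharges the disulfide isomerases, had levels of 4.86, 5.52 and 5.56 on the old arrays, against 6.51, 6.59 and 6.92 on the young arrays (difference -1.36 ± 0.27, SE). Ero1a was low on all 3 old arrays, and below the receptor level on replicates 1 and 2. Dnajc10, a reductase and BiP cochaperone, and Ppib, the ER cyclophilin, followed with -2.05 ± 0.52 and -2.40 ± 0.61 (SE). Both were also below the receptor level on old replicates 1 and 2. In the other direction the smallest p-values were those of Creld1 (0.63 ± 0.26, SE) and Fkbp11 (0.64 ± 0.29, SE). Creld1 was below the receptor level on old replicates 1 and 2, and Fkbp11 was at or below it on all 6 arrays. With old replicate 3 alone 3 of the 35 passed as lower (5.24% of all probe sets did), namely Ero1a, Ppib and Prdx4, an ER peroxiredoxin. The full stress element was found in the promoter windows of 4 of 30 genes of this list, Canx, Creld2, Dnajc3 and Ero1b.

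The sensor list had 11 measured genes, 8 with a lower old mean, where 7322 of all 19938 genes had one. Its median difference was -0.71, or -1.08 relative to all genes, and 5 of the 11 had a young mean above 7. Rtcb, the ligase that joins the cut Xbp1 transcript, was at 5.15, 5.91 and 9.33 on the old arrays, against 9.72, 9.71 and 9.84 on the young arrays. Mbtps1, a protease that takes part in releasing ATF6, and Tmbim6, an inhibitor of cell death at the ER, had differences of -1.67 ± 0.57 and -1.14 ± 0.39 (SE). Rtcb and Mbtps1 were below the receptor level on old replicates 1 and 2, and Tmbim6 on replicate 2. Creb3l1 and Creb3l2, relatives of ATF6, had higher old means, but both were at or below the receptor level on all 6 arrays. Of the ER degradation list, which removes misfolded proteins, 24 of 25 genes had a lower old mean. The median was -1.15, or -1.52 relative to all genes. Here 14 of the 25 had a young mean above 7, so the values of all genes are not a like background for this list. The list was led by Derl1, a channel component, at 5.63, 5.52 and 6.17 on the old arrays, against 7.02, 7.20 and 7.25 on the young arrays (difference -1.39 ± 0.25, SE). Derl1 passed as lower with old replicate 3 alone (-0.99 ± 0.14, SE, adjusted p = 0.016), as did Edem2, which was below the receptor level on that array. These are 2 of the 25, where 5.24% of all probe sets passed as lower. Ngly1, which strips glycans, and Edem1, which marks misfolded glycoproteins for removal, had differences of -1.76 ± 0.53 and -1.15 ± 0.36 (SE). Derl1 and Ngly1 were below the receptor level on old replicates 1 and 2, and Edem1 on replicate 1. The one gene with a higher old mean was Derl3 (0.51 ± 0.23, SE), which was below the receptor level on old replicates 1 and 2. The full stress element was found in the windows of 2 of 20 genes of the degradation list, Derl3 and Syvn1.

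The list of the ATF4 and CHOP arm was divided in direction. Of its 24 measured genes 13 had a higher and 11 a lower old mean, and the median difference was 0.17, or -0.20 relative to all genes. The groups did not overlap for 10 genes with the old arrays higher, where 36.1% of all probe sets did so, and for 8 with the old arrays lower (22.9%). Chac1, a glutathione-degrading enzyme induced by ATF4 and CHOP, was at 6.36, 6.63 and 5.34 on the old arrays, against 5.02, 4.94 and 4.90 on the young arrays (difference 1.16 ± 0.36, SE). Phgdh, the first enzyme of serine synthesis, was at 7.56, 7.62 and 6.19 on the old arrays, against 5.41, 5.97 and 5.83 on the young arrays (1.38 ± 0.43, SE). Both genes were above the receptor level on all 6 arrays and highest on old replicates 1 and 2. The receptor level was itself highest there, at 6.29 and 6.21, so Chac1 was only just above it on replicate 1. Without old replicate 3, 52.2% of all probe sets passed as higher. Bbc3 (Puma), a death gene, had a difference of 1.01 ± 0.35 (SE) but was at or below the receptor level on all 6 arrays. Lower old means with the smallest p-values were those of Slc3a2, an amino acid transporter subunit (-1.10 ± 0.30, SE), and Cebpg, a partner of ATF4 (-1.96 ± 0.58, SE). Slc3a2 and Cebpg were below the receptor level on old replicates 1 and 2. Each of these 5 genes had an adjusted p of 0.101. With old replicate 3 alone 2 of the 24 passed as lower (5.24% of all probe sets did), Slc3a2 and Bcl2l11, the death gene Bim, which was below the receptor level on that array.

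**Figure D4:**
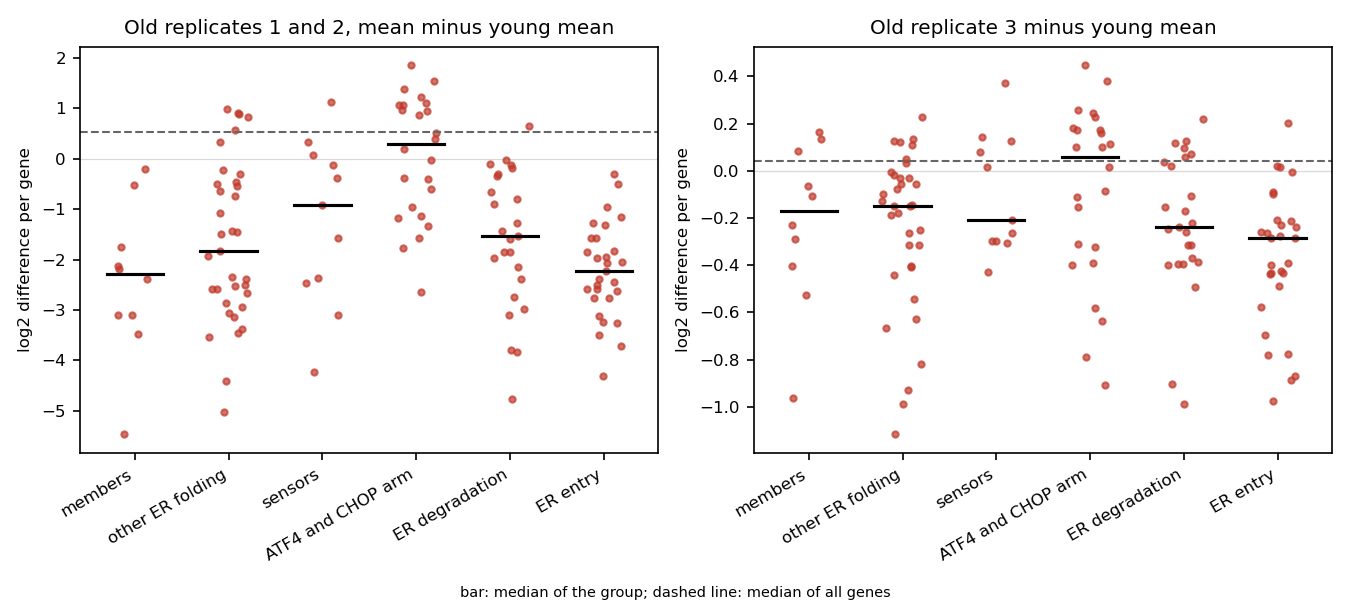
Log2 difference from the young mean for each gene of the members and of 5 lists of related genes, as the mean of old replicates 1 and 2 (left) and for old replicate 3 (right, on a narrower axis). Black bars are group medians, -2.29 and -0.17 for the members, and dashed lines the medians of all genes, 0.53 and 0.04.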

How the data were processed

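The authors deposited 1 intensity per probe set and array, on a linear scale from 3.58 to 8502, and RMA made them, per the submitters' processing notes. Its version and settings, and any scan batches, are not given in the sources used. Per the labels, 3 arrays are old and 3 young. Log2 was taken of the deposited intensity, and the 23410 probe sets with a gene entered limma 3.58.1 (R 4.3.3) (2-sided, age as the only factor, Benjamini-Hochberg over all of them, threshold adjusted p under 0.05). Where genes are counted, the probe set with the highest mean stands for a gene. The number of arrays limits the precision. Titles give both groups the numbers 1 to 3, and arrays of 1 number deviated together from their group means (r = 0.157, 0.15 and 0.279 over probe sets), all above the limit of 0.1. Old replicate 1 also did so with young replicate 2 (r = 0.153), and old replicate 2 with young replicate 1 (r = 0.141). The labels state no pairing, so the block was an alternative.

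The members and lists were chosen with earlier results of these data known. Named in the text are all members and, in each list, up to 3 genes with the smallest p in its main direction and up to 2 in the other, the 4 genes closest in profile to Hspa5 and to Ddit3, and markers. Genes that passed on old replicate 3 alone and genes with a stress element were named after their values were seen. No single-gene probe set was found for 14 listed genes. Alternatives were the replicate block, leaving out arrays, array weights, no dim probe sets, all probe sets, median centring, quantile normalization, trended robust moderation, the receptor level as a floor, and the mean of a gene's probe sets. The code was tested on simulated data. Tables were made with pandas 2.3.3 and numpy 2.4.6 in Python 3.11.15, figures with matplotlib 3.10.9.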

Additional observations from a re-analysis of the deposited data

How the results depend on the processing

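No member passed in the comparison of all arrays with the replicate block, without dim probe sets, with all probe sets of the table, after median centring or quantile normalization, with trended robust moderation, or at adjusted p under 0.1. With the replicate block 0 member probe sets and 0 of the 124 genes of the wider ER lists passed, and the median difference of the members stayed at -1.67. Leaving out 1 array at a time gave 0 to 10 member probe sets and 0 to 106 list genes, the higher counts without old replicate 3, where 82.4% of all probe sets passed, with median differences from -2.29 to -1.41. Array weights, which gave old replicate 3 the lowest weight (0.0447), called 10 and 106 (85.4% of all probe sets). The receptor level as a floor called 8 and 68 (67.6% of all). It narrows the spread of dim values and lifts them most on old replicates 1 and 2, so its share is not a like background. Old replicate 3 alone against the young arrays called 1 and 12 (7% of all), with a median difference of -0.17. There Hsp90b1 (0.083), Calr (0.14) and Ddit3 (0.17) were higher than the young mean. Leaving out 1 array at a time moved Ddit3 from -0.196 (without old replicate 3) to 0.024 (without old replicate 1), and it changed sign after quantile normalization too (1.01). The causes of these changes were not tested. The members other than Hsp90b1, Calr and Ddit3 kept a lower old mean in each alternative run. Hsp90b1 and Calr did so in every run but that of old replicate 3 alone. Mzb1 ranged from -2.20 to -0.96 and Xbp1 from -0.70 (array weights) to -0.06 (old replicate 3 alone). The mean of both Pdia4 probe sets gave -0.58 (adjusted p = 0.0931 with limma), against -1.55 for the brighter one. Signal over background limits what can be read: on old replicates 1 and 2 the falls of 7 of 9 bright member probe sets are bounds, where 55.1% of all such probe sets were at or below the receptor level.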

Other observations

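The gate of the ER, made of the translocon, signal peptidase, signal recognition particle and oligosaccharyl transferase, was the most one-sided of the related lists in counts. Of 29 measured genes 29 had a lower old mean, where 7322 of all 19938 genes did. The median difference was -1.58 (-1.95 relative to all genes). Over all arrays 0 passed, and 26 stood at an unadjusted p under 0.05 with limma (46.8% of all probe sets did). The groups did not overlap for 24 of the 29, each with the old arrays lower, against 22.9% of all probe sets. Brightness bears on these counts too, since 25 of the 29 had a young mean above 7. Of all 4817 such probe sets, 81.1% were more than 1 log2 below the young mean on both old replicates 1 and 2. The share of all probe sets is therefore not a like background for this list. Ssr2, a translocon-associated protein, was at 5.07, 4.98 and 7.54 on the old arrays, against 8.50, 8.39 and 8.66 on the young arrays. Sec61a2, an isoform of the channel subunit, was at 5.03, 5.28 and 6.03 on the old arrays, against 6.73, 6.60 and 6.84 on the young arrays. Rpn2, a subunit of the oligosaccharyl transferase, had a difference of -2.09 ± 0.57 (SE). Ssr2, Sec61a2 and Rpn2 were below the receptor level on old replicates 1 and 2. On old replicate 3, 24 of the 29 were below every young array, where 31.8% of all probe sets were. With that array alone, 5 of 29 passed as lower (5.24% of all probe sets did): Sec61a2, Ssr2, Sec11a, Srp9 and Srpr, which lay 0.69 to 0.98 log2 below the young mean. No full stress element was found in the promoter windows of the 21 genes of this list that had one.

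The genes closest to Hspa5 in profile, by the root mean square difference of log2 values minus the young mean over 6 arrays and 19937 other genes, were Kmo (0.047), Bms1 (0.0555), Pdcd6ip (0.0597) and Cops3 (0.065). The nearest member was Pdia6 (0.216), in place 284, and Hsp90b1 was in place 5245. Closest to Ddit3 were Mxd4 (0.0528), Clasrp (0.0674), Ccdc32 (0.0752) and Ppip5k1 (0.0817), with Xbp1 as the nearest member (0.336). Profiles over 6 arrays are set mostly by the distance of old replicates 1 and 2 from the rest, so nearness says little beyond that distance.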
